A study of Homo sapiens with 6 samples.

Results

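The genes described here are the 8 human genes that encode the subunits of chorionic gonadotropin and luteinizing hormone, which are CGB5, CGB8, CGB7, CGB, CGB1, CGB2, LHB and CGA. They were found by gene symbol among the 24551 symbols of the expression tables, and all 8 are listed. They were chosen by their FPKM values and their changes after SPOP knockdown in these same libraries, so those values are given as a description and no test was made on them. Counts over all genes used a filter at an average of 1 FPKM across the 6 libraries, which 6 of the 8 passed and CGB1 and CGB2 did not.

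RNA-seq had been made from 6 libraries of 2 cancer cell lines. SPOP is the substrate-binding part of a CULLIN 3 ubiquitin ligase, and the study asked how its loss acts in prostate cancer (PCa) and in clear cell renal carcinoma (CCRC). DU145, a prostate carcinoma line, and 769-P, a renal cell adenocarcinoma line, each gave 1 library with a control siRNA, 1 with SPOP siRNA 1 and 1 with SPOP siRNA 2. The labels name no other modification of the cells and give no time after transfection. The groups are therefore DU145 control, DU145 SPOP knockdown, 769-P control and 769-P SPOP knockdown, with 1 library in each control group and 2 in each knockdown group. The knockdown pair shares a target and not a sequence, so an SD given below is the spread between 2 siRNAs in 1 line, and the labels do not state whether the libraries came from separate cultures.

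Chorionic gonadotropin, luteinizing hormone, follicle-stimulating hormone and thyroid-stimulating hormone are secreted pairs of 1 common alpha subunit and 1 hormone-specific beta subunit. CGA encodes the common alpha subunit, LHB the beta subunit of luteinizing hormone made by pituitary gonadotrophs, and the CGB genes the beta subunit of chorionic gonadotropin made by the syncytiotrophoblast of the placenta. The CGB genes arose from LHB by duplication, and free beta subunit without the alpha subunit is known from several epithelial cancers, renal and urothelial ones among them.

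SPOP itself was low in every knockdown library. It was at 16.1 FPKM in the DU145 control and at 2.77 and 2.96 FPKM with the siRNAs, and at 11.6 FPKM in the 769-P control and at 1.53 and 1.39 FPKM with the siRNAs. The renal factor PAX8 was at 106 to 125 FPKM in 769-P and at 1.10 to 1.47 FPKM in DU145, while 8 of 11 prostate epithelial genes, KLK3 among them, were at most 1 FPKM in every library. Depth is not given in the values themselves, but the steps of the lowest FPKM values give it as relative numbers. With the 769-P control set to 1, the other 769-P libraries were at 1.07 and 1.41, the DU145 control at 1.18 and the DU145 siRNA libraries at 0.693 and 0.681. The DU145 control and the 769-P siRNA 2 library stood apart in another way. Olfactory receptor genes, of which a few are known in prostate or kidney, were taken as a measure of low-level signal. Of 366 such genes, 287 and 237 were above 0 there, and the remaining 4 libraries had 3 to 5 each. Their mean was 0.345 and 0.227 FPKM in those libraries and their highest value 1.60 and 1.53 FPKM.

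The 7 beta subunit genes lie together on the long arm of chromosome 19, between 49519237 and 49562117 of GRCh37 (hg19), the build the study used, and span 42.9 kb. LHB is at 49519237-49520348, CGB (named CGB3 in GENCODE) at 49526126-49527590, CGB2 at 49535147-49536495, CGB1 at 49538826-49540152, CGB5 at 49547105-49548568, CGB8 at 49550895-49552368 and CGB7 at 49557531-49562117. CGB2 and CGB5 are on the plus strand and the other 5 on the minus strand. CGA is alone on chromosome 6 at 87795216-87804824 on the minus strand. All but CGB7 and CGA have 3 exons in the transcript used here, CGB7 has 5 and CGA has 4.

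The promoters fall into groups by sequence. The 250 bases before the RefSeq start site are printed for 6 genes, 5′ to 3′ on each gene's own strand, because they show which genes share a promoter and which do not. They are from RefSeq on GRCh38.p14, at chr19:49043598-49043847 for CGB5, chr19:49049112-49049361 for CGB8, chr19:49057750-49057999 for CGB7, chr19:49036896-49037145 for CGB1, chr19:49017092-49017341 for LHB and chr6:87095107-87095356 for CGA. Capitals mark the CCAAT box, here as its reverse complement, in CGB5 and CGB8, GC boxes in CGB7, the cAMP response element in CGB1, EGR-type sites and between them a bicoid-type homeobox site in LHB, and a pair of cAMP response elements and the TATA box in CGA.
CGB5: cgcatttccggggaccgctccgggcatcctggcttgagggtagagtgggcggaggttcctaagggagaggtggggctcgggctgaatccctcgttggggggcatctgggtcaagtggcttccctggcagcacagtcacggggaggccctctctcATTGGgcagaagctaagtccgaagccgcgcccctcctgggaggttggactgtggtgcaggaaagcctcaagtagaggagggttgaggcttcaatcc
CGB8: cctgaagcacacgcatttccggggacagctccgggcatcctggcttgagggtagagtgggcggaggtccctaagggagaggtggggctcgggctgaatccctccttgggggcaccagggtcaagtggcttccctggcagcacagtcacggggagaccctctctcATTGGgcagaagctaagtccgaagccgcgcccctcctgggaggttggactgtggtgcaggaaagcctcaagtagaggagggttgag
CGB7: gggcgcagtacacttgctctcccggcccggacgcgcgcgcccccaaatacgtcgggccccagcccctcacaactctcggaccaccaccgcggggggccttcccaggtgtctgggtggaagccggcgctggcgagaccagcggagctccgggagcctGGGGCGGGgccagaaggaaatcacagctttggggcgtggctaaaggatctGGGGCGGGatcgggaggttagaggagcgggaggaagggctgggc
CGB1: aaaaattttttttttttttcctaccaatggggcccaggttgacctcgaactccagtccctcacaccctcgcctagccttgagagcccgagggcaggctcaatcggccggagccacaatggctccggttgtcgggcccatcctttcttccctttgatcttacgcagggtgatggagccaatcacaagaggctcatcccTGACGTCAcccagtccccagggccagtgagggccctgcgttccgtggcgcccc
LHB: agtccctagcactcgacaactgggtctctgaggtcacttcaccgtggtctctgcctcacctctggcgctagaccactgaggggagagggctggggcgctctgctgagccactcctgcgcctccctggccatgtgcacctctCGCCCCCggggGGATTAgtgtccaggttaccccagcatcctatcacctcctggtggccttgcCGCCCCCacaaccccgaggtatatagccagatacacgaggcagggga
CGA: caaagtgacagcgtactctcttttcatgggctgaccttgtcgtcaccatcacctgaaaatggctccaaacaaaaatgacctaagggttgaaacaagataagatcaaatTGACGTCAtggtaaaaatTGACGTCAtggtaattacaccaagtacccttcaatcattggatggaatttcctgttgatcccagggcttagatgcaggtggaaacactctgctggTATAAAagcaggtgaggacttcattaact
Over 300-base windows that run on to 50 bases after the start site, CGB5, CGB8 and CGB were close copies. CGB and CGB8 shared 98.3% of 290 aligned bases, CGB5 and CGB8 96.9% of 289, and CGB and CGB5 96.7% of 299. CGB1 and CGB2, whose start sites lie elsewhere and whose protein product is uncertain, shared 89.6% of 268 aligned bases with each other. CGB7 and LHB shared at most 76.3% of aligned bases with any other member.

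Short motifs were searched on both strands in these windows, with no claim that any is a bound site, and their shares were taken over 35116 RefSeq promoter windows of the same length. The cAMP response element TGACGTCA, the site of CREB-family factors, was in 1.85% of all windows and in CGA, CGB1 and CGB2. Its copies began at -142 and -124 from the start site in CGA, at -53 in CGB1 and at -31 in CGB2. TATAAA was in 11.5% of all windows and in CGA alone among the members, as were the GATA site AGATAA, in 10.3% of all windows, and TGACCTTG, a steroidogenic factor 1 type site, in 1.28%. LHB alone held TAATCC, the type of site that PITX factors bind, which 6.36% of all windows had. CGCCCCC, of the type that EGR1 binds, was in 22.8% of all windows and in LHB, CGB1, CGB2 and CGB7. CGB7 alone held the GC box GGGGCGGG, in 22.6% of all windows, and GCCNNNGGC, an AP-2 type site, in 23.2%, and 1 copy of each overlapped. CCAAT was in 34.6% of all windows and in all members but CGB7 and LHB.

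The transcripts are alike enough that reads cannot always be placed. CGB5 and CGB8 transcripts were 99.3% identical, CGB and CGB5 99.1% and CGB5 and CGB7 96.8% over their aligned bases. Each transcript was cut into all its windows of 100 bases, the length of 1 read, and each window was compared with the other members. With up to 2 mismatches, which the alignment allowed, 100% of CGB5 windows, 96.2% of CGB8, 93.8% of CGB1, 91.4% of CGB and 90.4% of CGB2 windows also lay in another member. For CGB7, whose transcript is longer, it was 19.5%. LHB, at 92.4% identity to CGB5, had 0 of its 425 windows in common with any member, and CGA had 0 of 611. In the other direction, 48.6% of CGB5 windows and 44.7% of CGB8 windows lay in CGB7 with up to 2 mismatches. The split of FPKM among the 6 CGB genes, CGB7 included, is therefore uncertain, and their sum is given beside the single values. These windows are of single reads, and the paired read was not used.

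**Figure D1:**
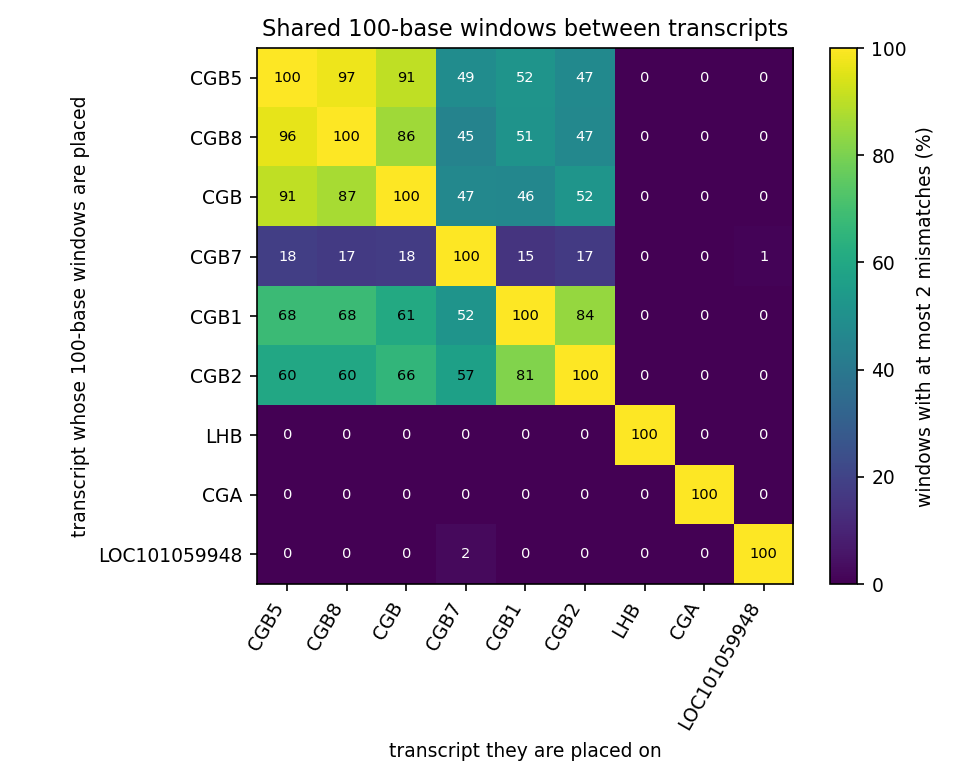
Share (%) of the 100-base windows of each transcript (vertical axis) that lie, with at most 2 mismatches, in each other transcript (horizontal axis). The 6 CGB genes share windows with each other, and the LHB and CGA transcripts share 0 windows with any of them.

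SPOP knockdown in 769-P cells came with far more beta subunit RNA. The summed CGB value was 48.6 FPKM in the control and 255 and 229 FPKM with siRNA 1 and siRNA 2. That is 242 ± 18.8 FPKM (SD, n = 2) against 48.6, or 5.25 and 4.70 times the control. CGB5, CGB8, CGB7, CGB and LHB were each higher with both siRNAs, and CGA, the alpha subunit gene, was lower with both. If the sum were 1 gene, it would rank 1488 of 24551 by FPKM in the 769-P control and 233 with each siRNA. In these bulk libraries, more cells that use the genes and more RNA per cell cannot be told apart.

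CGB5, a chief source of chorionic gonadotropin beta in placenta, carried most of that sum. It was at 34.4 FPKM in the 769-P control, 154 FPKM with siRNA 1 and 151 FPKM with siRNA 2. Both siRNA libraries stood well above the control and close to each other. The mean of 153 ± 2.14 FPKM (SD, n = 2) was 4.45 times the control, and the log2 fold change of FPKM + 1 was 2.13 and 2.11. CGB5 made up 70.7% of the summed CGB value in the control, 60.4% with siRNA 1 and 66.1% with siRNA 2.

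CGB8, the near-copy beside CGB5 on the other strand, was at 11.4 FPKM in the control, 80.4 FPKM with siRNA 1 and 58.2 FPKM with siRNA 2. Here the siRNA libraries differed more from each other, at 69.3 ± 15.7 FPKM (SD, n = 2), but both lay far above the control. The ratio to the control was 7.08 and 5.13, and the log2 fold change 2.72 and 2.26. CGB, the third of the genes with a like promoter, was at 1.95 FPKM in the control and at 13.5 and 14.0 FPKM with the siRNAs, a ratio of 6.93 and 7.15. The order CGB5, CGB8, CGB held in each 769-P library, with CGB8 at 23.3%, 31.5% and 25.5% of the sum and CGB at 4.01%, 5.30% and 6.10%.

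CGB7, whose promoter is of the other kind and whose encoded subunit differs slightly from that of CGB5, moved by a like ratio from a far lower level. Its values were 0.588 FPKM in the control, 4.39 FPKM with siRNA 1 and 3.73 FPKM with siRNA 2. The ratio was 7.46 and 6.34, but the log2 fold change of FPKM + 1 was 1.76 and 1.57 because the pseudocount weighs on so low a control. CGB1 was listed at 0 in the control and at 2.06 and 1.04 FPKM with the siRNAs. CGB2 was at 0.369, 0.687 and 0.519 FPKM. In the siRNA 2 library, 48 of the 366 olfactory receptor genes were at or above CGB2 and 4 at or above CGB1. Most windows of both genes also lie in other CGB genes, and many CGB5 and CGB8 windows lie in CGB7, as given above. The part of shared reads in the CGB7 values was not tested.

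LHB, which shares no window with the CGB genes, was higher as well. It was at 2.30 FPKM in the control, 12.3 FPKM with siRNA 1 and 7.25 FPKM with siRNA 2. Both siRNA libraries lay above the control, with a wide gap between them, at 9.76 ± 3.55 FPKM (SD, n = 2). The ratio to the control was 5.33 and 3.15 and the log2 fold change 2.01 and 1.32. LHB was at 4.73% of the summed CGB value in the control, 4.81% with siRNA 1 and 3.17% with siRNA 2.

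CGA went the other way. It was at 5.35 FPKM in the 769-P control, listed at 0 with siRNA 1 and at 2.26 FPKM with siRNA 2, a log2 fold change of -2.67 and -0.96. How many fragments stand behind these values is not known. FPKM times relative depth is proportional to the fragments of 1 gene, and with the lowest value above 0 in any library set to 1, CGA was at 1.91 in the control, 0 with siRNA 1 and 1.14 with siRNA 2. The same measure for CGB5, with its own lowest value set to 1, was 59.3, 284 and 369. The lowest value set to 1 was 2.81 for CGA and 0.580 for CGB5 as FPKM times depth. The 2 scales therefore describe each gene over the libraries and do not compare the genes. Summed CGB was 9.08 times CGA in the 769-P control and 101 times CGA with siRNA 2.

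**Figure D2:**
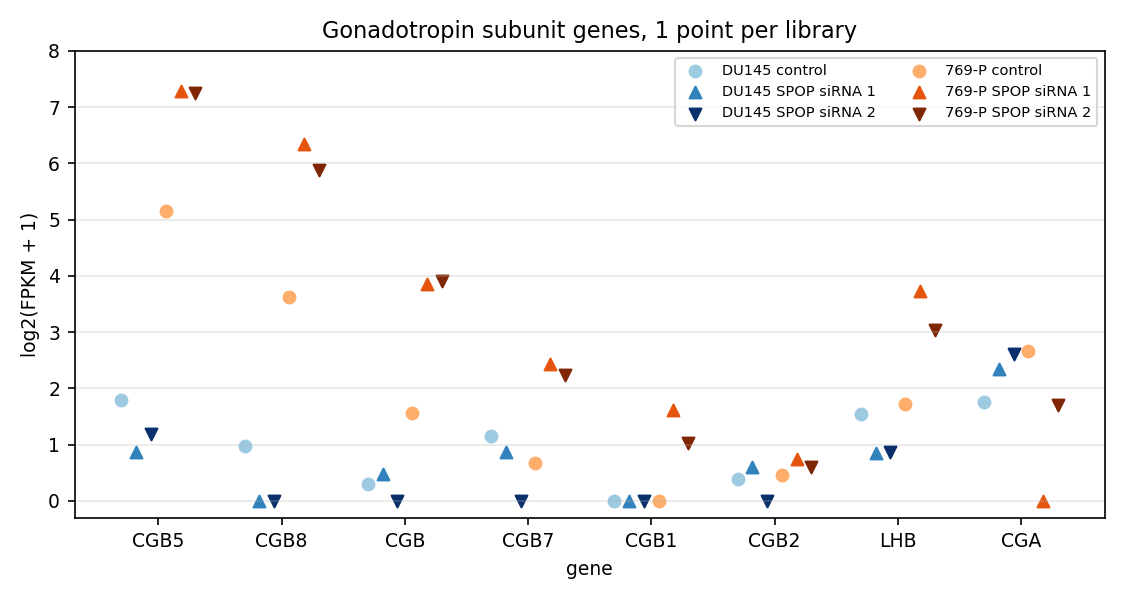
Level of the 8 genes as log2(FPKM + 1), with 1 point per library. In 769-P, the siRNA points of CGB5, CGB8, CGB and LHB sit above the control point, and the DU145 points of those genes sit below every 769-P point.

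**Figure D3:**
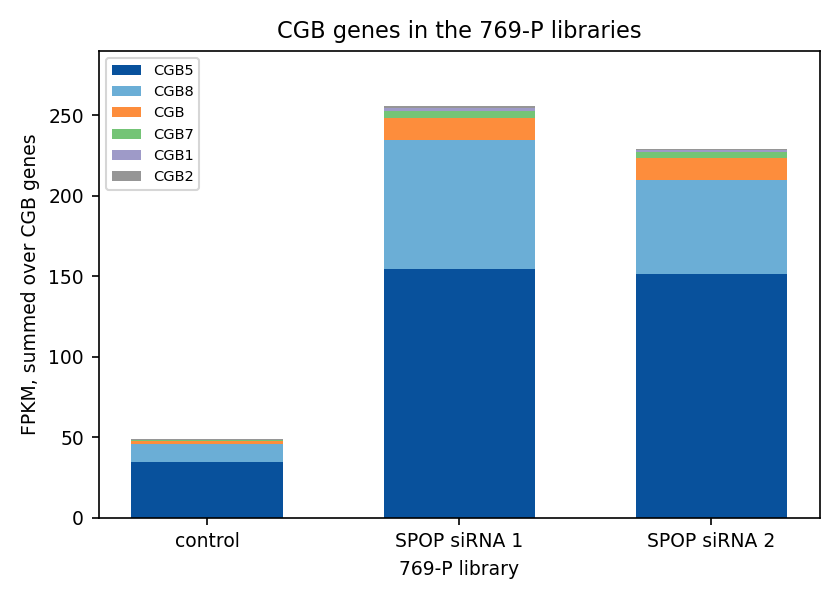
Summed FPKM of the 6 CGB genes in the 3 libraries of 769-P, 1 bar per library, divided by gene. CGB5 and CGB8 make up most of each bar, and the bars reach 48.6 FPKM in the control, 255 FPKM with siRNA 1 and 229 FPKM with siRNA 2.

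These genes stood near the top of all changes in 769-P, which is part of how they were chosen. Of the 6 members past the filter, 5 passed a fold of 1.5 upwards on log2(FPKM + 1) with both siRNAs and CGA passed it downwards, where 3.60% and 3.73% of all 11865 tested genes did so, and nothing is read from that difference. The same 5 passed a fold of 2 upwards, as 0.657% of all tested genes did, and CGA did not pass it downwards, as 0.565% did. CGB and CGB7, with means of 5.01 and 1.80 FPKM over the 6 libraries, passed the filter only through their values in the 769-P siRNA libraries. Their upward calls and ranks were thus partly set by the filter. By the smaller of the 2 log2 fold changes, CGB ranked 4 of 11865, CGB8 6, CGB5 8, CGB7 16 and LHB 26. By the mean of the 2, CGB8 ranked 18, CGB 20, CGB5 27, CGB7 40 and LHB 41, and CGA ranked 11837. At the edge of the rule, CGB7 and LHB had the smallest mean log2 fold change of the 5 members called upwards, at 1.67 and 1.66. Outside the filter, CGB1, listed at 0 in the control, was at 1.61 and 1.03, and CGB2 was at 0.30 and 0.15.

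In DU145 the beta subunit genes were low, and CGB5, CGB8, CGB7 and LHB were lower still with both siRNAs, while CGB, CGB1 and CGB2 were not. The summed CGB value was 5.23 FPKM in the control, 2.59 FPKM with siRNA 1 and 1.28 FPKM with siRNA 2. Both siRNA libraries lay below the control, at 0.496 and 0.244 times its value. With the mean olfactory receptor value subtracted for each of the 6 genes in each library, the sums were 3.65, 2.57 and 1.27 FPKM. The mean log2 fold change of the sum, -1.12 ± 0.47 (SD, n = 2), then came to -0.71, a comparison chosen after the values were seen.

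CGB5 was again the leading gene in the DU145 control, at 2.47 FPKM, and stood at 0.837 and 1.28 FPKM with the siRNAs, a log2 fold change of -0.92 and -0.61. LHB was at 1.90 FPKM in the control and at 0.804 and 0.817 FPKM with the siRNAs, a log2 fold change of -0.69 and -0.68. CGB8 had 0.980 FPKM in the control, while both siRNA libraries list it at 0. No olfactory receptor gene reached CGB5 or LHB in the DU145 control library, and 12 of the 366 were at or above CGB8. These 3 genes passed a fold of 1.5 downwards with both siRNAs and none passed a fold of 2, where 1.19% and 0.329% of all tested genes did, and nothing is read from that difference.

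The other CGB genes were at the edge of detection in DU145. CGB7 was at 1.24, 0.837 and 0 FPKM in the control, siRNA 1 and siRNA 2 libraries, CGB at 0.235, 0.398 and 0 FPKM and CGB2 at 0.309, 0.522 and 0 FPKM. CGB1 was listed at 0 in all 3. Many olfactory receptor genes in the control library were at or above CGB and CGB2, 171 and 164 of the 366. In the siRNA 1 library CGB5 and CGB7 had the same value, 0.837 FPKM.

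Depth bears directly on these low values. The DU145 control library was 1.70 times as deep as the siRNA 1 library and 1.73 times as deep as the siRNA 2 library, so 1 fragment weighs more in FPKM in the latter. On the scale of FPKM times depth, with the lowest value above 0 of each gene set to 1, CGB5 was at 5.01, 1 and 1.5 in DU145 and LHB at 4.02, 1 and 1. CGB and CGB2 were each at 1, 1 and 0, so their higher FPKM with siRNA 1 went with an equal number of fragments. How many fragments the unit stands for is not known.

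CGA was the one member that was higher in DU145 after knockdown. It was at 2.39 FPKM in the control, 4.05 FPKM with siRNA 1 and 5.15 FPKM with siRNA 2, a ratio of 1.69 and 2.15. The log2 fold change of FPKM + 1 was 0.57 and 0.86, and the first falls just short of a fold of 1.5. On the scale of FPKM times depth, CGA was at 1 in the control, 1 with siRNA 1 and 1.25 with siRNA 2. The difference in FPKM thus went with nearly equal numbers of fragments in libraries of different depth. Summed CGB was 2.19 times CGA in the control, and 0.641 and 0.248 times CGA with the siRNAs.

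**Figure D4:**
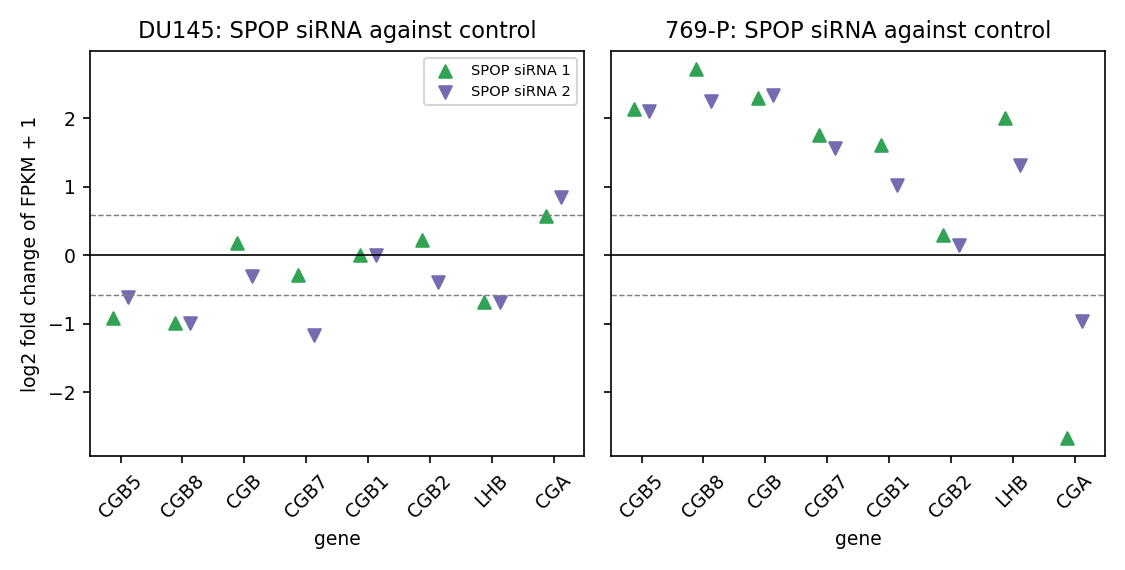
Log2 fold change of FPKM + 1 against the control of the same line for the 8 genes, with 1 point per siRNA, DU145 on the left and 769-P on the right. CGB5, CGB8, CGB7 and LHB lie below 0 with both siRNAs in DU145 and above 0 with both in 769-P, and CGA lies on the opposite side in each line.

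Among the members, the lines differed most in the CGB genes with near-identical promoters. Summed CGB in 769-P was 9.30 times that in DU145 in the control libraries, 98.5 times with siRNA 1 and 179 times with siRNA 2. For CGB5 the ratios were 13.9, 184 and 119. LHB differed little between the control libraries, at 1.21 times, and by 15.3 and 8.88 times with the siRNAs. Over the 3 libraries of each line, CGB5, CGB8, CGB and LHB did not overlap between lines, with a mean log2 difference, DU145 minus 769-P, of -5.27, -4.96, -2.85 and -1.75, while CGB7, CGB1, CGB2 and CGA overlapped. The share of all genes that did not overlap is not given here. By another criterion, limma at an adjusted p under 0.05, 42.1% of all tested genes differed in level between the lines. Of all tested genes, 26.8% were higher and 15.3% lower in DU145. Nothing about the members is read from that share.

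The makeup of the sum also differed by line. In the DU145 control, CGB5 made up 47.3%, CGB7 23.6% and CGB8 18.7% of the sum, and in the 769-P control CGB7 made up 1.21%. LHB was 31% to 64.0% of the summed CGB value in the DU145 libraries and 3.17% to 4.81% in the 769-P libraries. The DU145 shares rest on sums of 5.23 FPKM and less.

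Genes around the cluster were also followed. Within 250 kb of it, 23 other genes were matched and 14 passed the filter. Of the 14, GYS1 (glycogen synthase) and LOC101059948 passed a fold of 1.5 upwards with both siRNAs in 769-P, where 3.60% of all tested genes did, none passed it downwards, and none passed in either direction in DU145. The median log2 fold change of the 14 was 0.29 in 769-P and 0.19 in DU145, beside -0.03 and 0.09 over all tested genes. In limma, 0 of the 14 had an adjusted p under 0.05 for the knockdown in either line or for the difference between lines, where 0.135%, 0.101% and 0.169% of all tested genes did. At an unadjusted p under 0.05 there were 0 in DU145, 2 in 769-P and 1 in the difference, and the fit with a replicate block gave 0 each time.

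LOC101059948 is the neighbour of most interest because it lies between LHB and CGB, at chr19:49521225-49523806. It was listed at 0 in the 769-P control and was at 4.07 and 2.63 FPKM with the siRNAs. Its mean log2 fold change of 2.10 lay within the range of the beta subunit genes, above CGB7 and LHB. In DU145 it was at 1.03, 0.874 and 1.78 FPKM. In limma its adjusted p in 769-P was 0.506. Its transcript has 83.3% identity to CGB7 over 713 aligned bases, and 2.45% of its windows lie in CGB7 with up to 2 mismatches.

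By mean log2 fold change in 769-P, the other tested neighbours lay below the 5 beta subunit genes past the filter. With siRNA 1 alone NTF4 was at 2.20 there, beside 2.13 for CGB5. In DU145, NTF4 had a mean log2 fold change of 0.86, beside -0.76 for CGB5. GYS1 was at 15.6 FPKM in the 769-P control and 29.98 and 29.94 FPKM with the siRNAs. RUVBL2, an ATPase of chromatin remodelling complexes whose end adjoins LHB, was at 104, 136 and 130 FPKM. SNRNP70, a spliceosome protein, was at 112, 138 and 114 FPKM. NTF4, a neurotrophin gene beside CGB7, was at 0.758 FPKM in the control, 7.08 FPKM with siRNA 1 and 0.891 FPKM with siRNA 2, so that the siRNAs did not move it alike. Without LOC101059948, mean log2 fold changes ran from -0.28 to 1.15 in 769-P and from -0.71 to 0.86 in DU145 over BCAT2, HSD17B14, PPP1R15A, NUCB1, BAX, FTL, GYS1, RUVBL2, NTF4, SNRNP70, LIN7B, PPFIA3 and TRPM4.

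**Figure D5:**
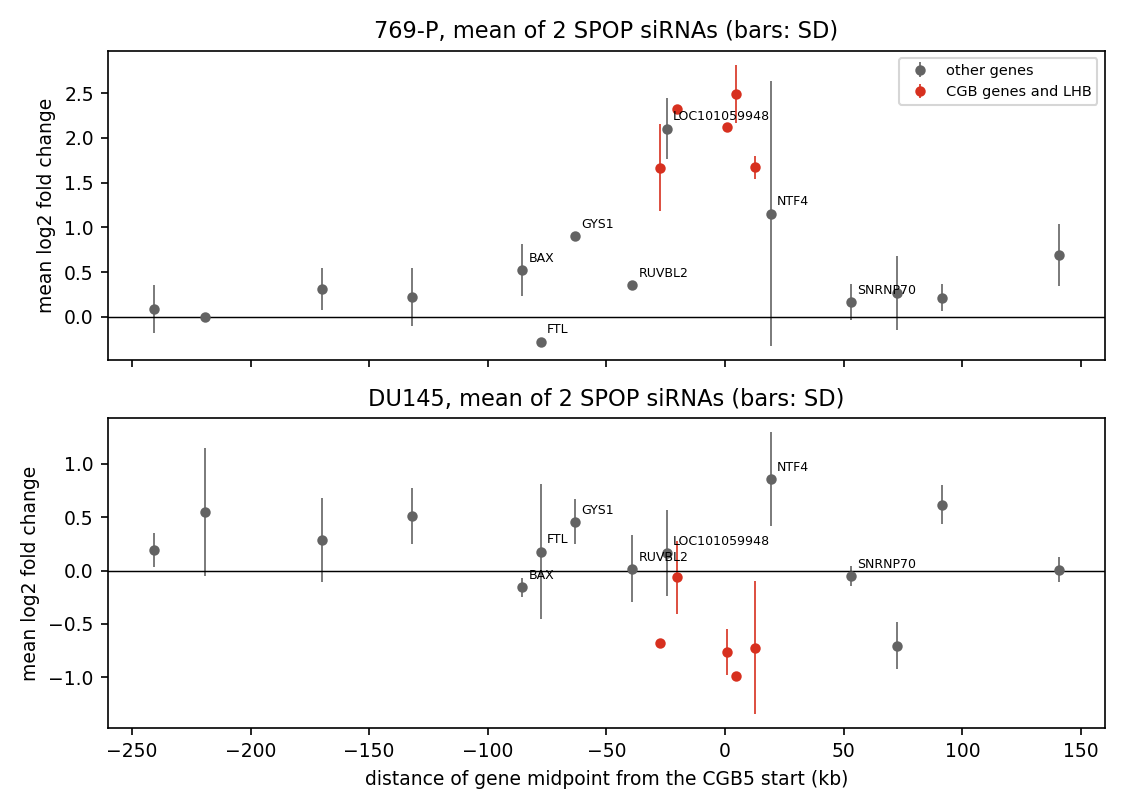
Mean log2 fold change of FPKM + 1 over both siRNAs against distance from the CGB5 start (kb), with 769-P above and DU145 below. Genes past the filter within 250 kb of the cluster are drawn, with bars for the SD (n = 2). The 5 beta subunit genes past the filter lie at 1.66 to 2.49 in 769-P, where LOC101059948 lies among them at 2.10 and the other neighbours lie at 1.15 or less.

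Some genes elsewhere in the genome followed the same profile over the libraries. Likeness was taken as Pearson's r of log2(FPKM + 1) with the summed CGB value over the 6 libraries, which fall into 2 lines, so r mostly reflects the gap between lines and is a description. Among 11865 genes the highest non-members were S100A3, LRRC8E, LOC100132891, DNPEP and PLEKHO1, with r from 0.996 to 0.998, and 355 non-members had r of at least 0.95. S100A3, a calcium-binding protein of hair cuticle, was at 7.03, 5.17 and 4.73 FPKM in the DU145 control and siRNA libraries and at 21.5, 40.8 and 44.4 FPKM in those of 769-P. Among the members, r was 0.996 for CGB8, 0.994 for CGB5, 0.969 for CGB, 0.942 for LHB, 0.845 for CGB7 and -0.642 for CGA. Each CGB gene is itself part of the sum, so a high r for CGB5 and CGB8, its largest parts in 769-P, is built in.

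The partners of these subunits were largely absent. The other beta subunit genes FSHB and TSHB, the thyrostimulin genes GPHA2 and GPHB5 and the receptor genes LHCGR, FSHR and TSHR were all at most 1 FPKM in every library, with FSHB and GPHB5 listed at 0 throughout. LHCGR is the receptor that binds both chorionic gonadotropin and luteinizing hormone. None of the 7 passed the filter, so none was tested.

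Marker genes of the cell types known for these hormones were largely absent too. Of 30 trophoblast genes found in the tables, 26 were at most 1 FPKM in every library and 6 were listed at 0 throughout. Of 14 anterior pituitary genes, 11 were at most 1 FPKM in every library. Of the 4 trophoblast genes tested, KISS1, the kisspeptin precursor, passed a fold of 1.5 upwards in DU145, as 4.72% of all tested genes did, at 1.91 FPKM in the control and 5.39 and 5.48 FPKM with the siRNAs. ADAM12, a protease shed by placenta, passed it in 769-P, as 3.60% did, at 2.18, 6.002 and 5.982 FPKM. Neither passed limma, with an adjusted p of 0.719 for KISS1 in DU145 and 0.643 for ADAM12 in 769-P. The tested trophoblast gene with the highest mean was TFPI2, an inhibitor of serine proteases, at 5.89, 15.1 and 7.96 FPKM in DU145 and at most 0.281 FPKM in 769-P.

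Transcription factors known to act on gonadotropin subunit promoters were examined next, and nothing is read from fold counts among so few genes. Of 19 found, 13 passed the filter. In DU145, ETS2 (25.6, 48.1 and 40.0 FPKM) and PITX1 (43.3, 129 and 68.2 FPKM) passed a fold of 1.5 upwards with both siRNAs and none passed it downwards, where 4.72% and 1.19% of all tested genes did. In 769-P, EGR1 passed it downwards at 1.65, 0.741 and 0.712 FPKM, as 3.73% of all tested genes did. None passed it upwards there, where 3.60% did. The median log2 fold change of the 13 was 0.31 in DU145 and 0.03 in 769-P, beside 0.09 and -0.03 over all tested genes. In limma, 0 of the 13 passed in either line, with 0 at an unadjusted p under 0.05 and 0 with a replicate block, where 0.135% and 0.101% of all tested genes passed.

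Between the lines, 7 of the 13 factors differed in level in limma at an adjusted p under 0.05, 6 higher in DU145 and 1 higher in 769-P. Of all tested genes 42.1% differed, 26.8% higher and 15.3% lower in DU145, so the share among the factors is near the background. PITX1, which activates LHB in the pituitary, was at 0.270 to 0.883 FPKM in 769-P, a log2 difference of 5.47 (SE 0.32, adjusted p = 0.000376). TFAP2A, an AP-2 factor known to act on CGB promoters, was at 22.9, 15.8 and 25.6 FPKM in DU145 and at 1.47, 1.76 and 2.53 FPKM in 769-P, a log2 difference of 3.02 (SE 0.26, adjusted p = 0.000879). GATA2 and TFAP2C were also higher in DU145. JUN was the factor that was higher in 769-P, at 101, 157 and 108 FPKM against 31.1, 53.2 and 40.2 FPKM. GCM1, a trophoblast factor below the filter and named after its values were seen, was at 1.56, 1.31 and 2.21 FPKM in 769-P and at 0, 0 and 0.121 FPKM in DU145.

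The cAMP pathway is a known inducer of both CGA and CGB. Of its 16 genes, 14 passed the filter, and none passed a fold of 1.5 with both siRNAs in either line. Of all tested genes, 4.72% passed it upwards and 1.19% downwards in DU145, and 3.60% and 3.73% in 769-P. Nothing is read from a count of 0 among so few genes. Their median log2 fold change was 0.16 in DU145 and -0.06 in 769-P, beside 0.09 and -0.03 over all tested genes. The highest were SIK1, at 92.5, 156 and 66.6 FPKM in 769-P, and PRKACA, the catalytic subunit of protein kinase A, at 25.2, 28.2 and 19.9 FPKM. In limma, 0 of the 14 passed in either line, where 0.135% and 0.101% of all tested genes did. There were 0 at an unadjusted p under 0.05 and 0 with a replicate block.

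Genes that fold and glycosylate the subunits were well expressed in both lines. Of 20 found, 18 passed the filter, and 2 of these passed a fold of 1.5 upwards with both siRNAs in DU145 and 1 in 769-P, where 4.72% and 3.60% of all tested genes did. MGAT4B, which branches N-linked glycans, passed a fold of 1.5 upwards in both lines, at 117, 298 and 273 FPKM in DU145 and 181, 313 and 325 FPKM in 769-P. GALNT2, which starts O-linked glycans of the kind on the CGB carboxyl end, passed it in DU145 alone, at 62.3, 105 and 108 FPKM, and stood at 101, 111 and 119 FPKM in 769-P. The median log2 fold change was 0.26 in DU145 and 0.15 in 769-P. In limma, 0 of the 18 passed in either line, with 3 in DU145 and 1 in 769-P at an unadjusted p under 0.05 and 0 with a replicate block, where 0.135% and 0.101% of all tested genes passed. In limma the adjusted p of MGAT4B was 0.415 in DU145 and 0.669 in 769-P.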

How the data were processed

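RNA-seq of poly(A)-selected RNA was analysed from 6 libraries, with 1 control siRNA and 2 SPOP siRNA libraries in each of DU145 and 769-P. The FPKM values were deposited by the authors, who aligned 100-base paired reads to hg19 with TopHat2, allowing at most 2 mismatches, and estimated FPKM with Cufflinks. FastQC and cutadapt are named in the submitters' processing notes. Tool versions and the gene annotation are not given in the sources used here. The labels and the study's methods name different library kits and amounts of RNA, and the methods speak of 2 biological replicates where the labels give 1 library per siRNA.

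Each table held 26006 lines, and 440 symbols listed more than once were summed, giving 24551 genes. Values were used as log2(FPKM + 1), and fold changes on that scale understate changes of low genes. The 11865 genes that averaged 1 FPKM or more went into limma 3.58.1 in R 4.3.3 with a trend, over 4 groups, with Benjamini-Hochberg adjustment at 0.05, and p-values measure only the spread between the siRNA libraries. A fold call needed both siRNAs of a line past 1.5-fold in 1 direction. A low gene could pass the filter only through the siRNA libraries in which it was high. CGB, CGB7, LOC101059948, KISS1 and ADAM12 did so, and their upward calls are in part set by the filter. No count test was run, since FPKM are not counts. Relative depth was the commonest ratio of low values between libraries, in bins of 0.02 on the log2 scale, and 13.4% to 19.0% of the low genes compared held it. The limma step was tested on simulated data.

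The members and all gene lists were chosen with earlier results of these data known. Named were the members, SPOP, the genes of each list past 1.5-fold or past limma and the 2 highest by mean FPKM, tested genes within 250 kb of the cluster, and the 5 most alike genes. RXRA, HSP90B1, ERVW-1, XAGE2 and COL3A1 were not analysed here, and the values of some other list genes are not reported here. Gene positions are from GENCODE v44lift37, and promoters matched all 8 members in RefSeq. Python 3.11.15, pandas 2.3.3, numpy 2.4.6 and biopython 1.88 were used. The alternatives were other pseudocounts, filters, fold limits, scalings, a replicate block and leaving out each siRNA library.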

Additional observations from a re-analysis of the deposited data

Results flagged for a closer look

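Both SPOP siRNAs moved the summed CGB value, CGB5, CGB8, CGB7 and LHB down in DU145 and up in 769-P, and moved CGA the opposite way in each line. The difference in mean log2 fold change, DU145 minus 769-P, was -3.41 for the summed CGB value, -2.88 for CGB5, -3.48 for CGB8, -2.39 for CGB7 and -2.35 for LHB. For CGA it was 2.53. These differences were not tested, because the genes were picked with these values known. The DU145 values behind them were at most 5.23 FPKM for the sum and at most 2.47 FPKM for a single beta subunit gene, and the DU145 control was the library with 287 of 366 olfactory receptor genes above 0. The part of that background and of depth in the differences was not tested. CGA in DU145 was at most 5.15 FPKM, and its change with siRNA 1 there fell short of a fold of 1.5. As FPKM times depth, with its lowest value set to 1, CGA was at 1, 1 and 1.25 in the DU145 control, siRNA 1 and siRNA 2 libraries.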

How the results depend on the processing

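The summed CGB results kept their direction under each alternative run, including the subtraction of the mean olfactory receptor value, which was chosen after seeing the data. Leaving out 1 siRNA, the log2 fold change ran from -1.45 to -0.79 in DU145 and from 2.21 to 2.37 in 769-P. Over the single members, 120 alternative values were computed, 22 moved by more than the SD between siRNAs (17 of 24 with a pseudocount of 0.1 and 5 of 24 with centring on the median) and 2 changed sign. Without siRNA 2, the log2 fold change in DU145 went from -0.06 to 0.18 for CGB and from -0.08 to 0.22 for CGB2, neither of which had passed a fold of 1.5. Counts of genes past 1.5-fold with both siRNAs, 701 in DU145 and 869 in 769-P, became 1132 and 1489 with a pseudocount of 0.1, 440 and 573 at a mean of at least 5 FPKM, and 118 and 145 at 2-fold. With no filter DU145 had 1140. With 1 siRNA alone, counts ran from 1787 to 2308 in DU145 and from 1723 to 2388 in 769-P.

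The limma counts were unstable, at 16 genes for the knockdown in DU145, 12 in 769-P, 20 for the difference between lines and 4994 for the level between lines. With no filter they were 1186, 148 and 1202 for the first 3, and at a mean of at least 5 FPKM 4 in DU145, 3 for the difference and 3261 for the level. For the difference, limma gave 0 with a pseudocount of 0.1 (319 at an unadjusted p under 0.05) and 10 after quantile normalization. Quantile normalization split the level calls into 2603 higher and 2715 lower in DU145, against 3175 and 1819. Leaving out 1 siRNA library gave 0 to 30 in DU145, 0 to 7 in 769-P, 0 to 37 for the difference and 2763 to 3892 for the level. The counts of 0 came without either 769-P siRNA library, where 462 and 463, 362 and 578, and 215 and 282 genes had an unadjusted p under 0.05 in limma. The lone library was then assumed to vary like the other groups. The causes of these shifts were not tested.

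The replicate numbers mark the same siRNA in both lines, and with only 2 pairs the differences between siRNAs correlated at 0.27 across genes. With a replicate block, limma called 18 genes in DU145, 14 in 769-P, 8 for the difference and 5977 for the level.

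Depth limits the DU145 values, where several members rest on the lowest value any library holds for them, and the number of fragments behind it is unknown. The limma fit rested on 2 residual degrees of freedom, and SPOP itself had an adjusted p of 0.134 in DU145 and 0.0948 in 769-P.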

Other observations

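COL1A1, a fibrillar collagen chain of mesenchymal cells, was higher with both SPOP siRNAs in 769-P, at 1.71 FPKM in the control and 9.68 and 7.36 FPKM with the siRNAs, with an adjusted p of 0.392 in limma. In DU145 it was at 2.89, 3.77 and 3.12 FPKM. It was the 1 gene past the filter of 10 leukocyte, endothelial and fibroblast genes found in the tables, of which 8 were at most 1 FPKM in every library. Of 10 renal epithelial genes, 7 passed the filter and none passed a fold of 1.5 with both siRNAs in either line. Of all tested genes, 4.72% passed it upwards and 1.19% downwards in DU145, and 3.60% and 3.73% in 769-P. All 7 differed in level between lines in limma at an adjusted p under 0.05, 6 of them higher in 769-P. Of all tested genes 42.1% differed, 26.8% higher and 15.3% lower in DU145. Of 11 prostate epithelial genes, 3 passed the filter and none passed a fold of 1.5 in either line. By the same limma contrast of level, these 3 were all higher in DU145.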
